A study of Mus musculus with 12 samples.

Results

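The 7 genes described here are Ciita and 6 genes of major histocompatibility complex (MHC) class II antigen presentation, H2-Aa, H2-Ab1, H2-Eb1, Cd74, H2-DMa and H2-DMb1. They were picked by name, as known genes of this pathway, from the 32288 rows of the count tables, and all 7 were among the 18804 genes that passed the filter on low counts. Their levels were compared with one another, with Ciita and across 12 tumors, and the 2 libraries of far larger totals are shown apart.

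The tumors were grown under the skin of the back of DBA/2 mice of 8 to 10 weeks, 1 tumor and 1 library per mouse and 3 mice per group. P815 is a mastocytoma (mast cell tumor) line of this mouse strain. P815-IFNG cells carry the light-sensitive transactivator GAVPO, driven by the EF-1α promoter, and a 5×UAS-driven module that encodes Ifng, Cxcl10 and the secreted luciferase hGluc. P815-M cells, the control line, lack both, and the 2 lines share a construct for the red fluorescent protein mRuby and firefly luciferase (Fluc). Each line is 1 clone grown from a single cell, so that a difference between the lines cannot be told apart from a difference between 2 clones. Mice of the light groups received blue light for 12 h per day over 6 days, and mice of the dark groups received none. Whole tumors were sequenced, and in such bulk samples fewer cells of a type and less RNA per cell cannot be told apart.

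MHC class II molecules are pairs of an α and a β chain that present peptides from the endosomes to CD4+ T cells. Dendritic cells and B cells carry them at all times, and macrophages and many other cells make them, or more of them, when exposed to IFNG. The coactivator CIITA does not bind DNA itself. It joins factors (RFX, CREB and NF-Y) that sit on the X and Y boxes in front of the class II genes, and its own gene is switched on by IFNG, in part through IRF1.

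The promoters below are shown because these boxes are the letters through which CIITA is known to act on the genes measured here. Promoter sequence of RefSeq, build GRCm38.p6, was matched for 4 of the 7 genes, H2-Aa, H2-Eb1, H2-DMa (2 start sites) and H2-DMb1. Each window runs 5′ to 3′ on the strand of the gene, from 250 bases before to 50 bases after the start. Capitals mark matches, on either strand, to CTGATTGG (a Y box), to AACNGATG (the core of the X box) and to CCAAT, whose reverse complement lies inside CTGATTGG, so that both mark the same letters there.
H2-Eb1, chr17:34305617-34305916, plus strand: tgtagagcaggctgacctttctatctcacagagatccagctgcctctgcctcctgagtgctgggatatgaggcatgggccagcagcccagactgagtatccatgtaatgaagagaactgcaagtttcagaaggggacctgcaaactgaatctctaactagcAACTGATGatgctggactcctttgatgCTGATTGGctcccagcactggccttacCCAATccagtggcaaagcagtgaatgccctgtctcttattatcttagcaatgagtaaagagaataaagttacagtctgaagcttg
H2-Aa, chr17:34287774-34288073, minus strand: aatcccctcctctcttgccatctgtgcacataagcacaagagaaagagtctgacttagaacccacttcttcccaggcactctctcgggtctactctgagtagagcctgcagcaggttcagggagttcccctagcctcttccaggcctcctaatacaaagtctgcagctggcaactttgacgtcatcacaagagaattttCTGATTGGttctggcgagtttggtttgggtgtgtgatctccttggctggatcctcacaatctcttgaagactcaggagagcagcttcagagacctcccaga
H2-DMb1, chr17:34152941-34153240, plus strand: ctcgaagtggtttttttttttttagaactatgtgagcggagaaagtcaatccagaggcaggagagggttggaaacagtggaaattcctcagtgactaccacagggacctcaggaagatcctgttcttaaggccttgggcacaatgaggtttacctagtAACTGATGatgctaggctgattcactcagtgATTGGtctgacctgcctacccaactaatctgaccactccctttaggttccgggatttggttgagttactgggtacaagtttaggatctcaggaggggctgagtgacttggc
H2-DMa, second start, chr17:34125268-34125567, plus strand: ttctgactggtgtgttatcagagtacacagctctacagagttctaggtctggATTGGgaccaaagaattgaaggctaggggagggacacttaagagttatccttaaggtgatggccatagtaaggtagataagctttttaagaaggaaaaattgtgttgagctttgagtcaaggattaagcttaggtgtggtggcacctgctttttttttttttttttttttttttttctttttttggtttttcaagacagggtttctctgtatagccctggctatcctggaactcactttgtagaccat

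The H2-Eb1 window held all 3 motifs, with the X box core from 89 to 82 bases before the start, the Y box from 62 to 55, and a further CCAAT from 35 to 31. In the H2-Aa window the Y box lay 51 to 44 bases before the start, and no match to the X box core was found. H2-DMb1 had the X box core from 92 to 85 bases and a CCAAT from 61 to 57 bases before its start. The second H2-DMa window held a CCAAT alone, 198 to 194 bases before the start, and the first, chr17:34122582-34122881, held no match. That first window also holds 34122634, the annotated start of Brd2, a gene of the other strand. Other start sites of H2-DMa were not searched. Of all 32851 promoters of this length, 4.1% held the Y box, 2.32% the X box core, 37.4% a CCAAT, and 0.88% the X box core together with a CCAAT. A match describes these letters only and is no evidence of binding. Boxes that depart from the searched letters are missed, so a window without a match may still hold one.

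The libraries were of 2 kinds. Totals ran from 2211234 to 2946792 counts for 10 of them, called the shallow libraries below. P815-IFNG light replicate 3 held 41473500 counts and P815-IFNG dark replicate 3 held 42338096, and these are called the deep libraries. A count of 3, taken as the floor, equals 0.931 to 1.56 CPM (read counts relative to the library total, scaled with TMM factors) in the shallow libraries and 0.0670 to 0.0694 in the deep ones. The labels name a stranded mRNA kit, and HTSeq was run with default settings. The share of mitochondrial protein-coding counts held by mt-Nd6, the one such gene on the other strand, was 29.0% to 47.9% in the shallow libraries and 3.56% and 3.85% in the deep ones. The part of strand in the values below was not tested. GAVPO_bla, a knock-in sequence, had 392 CPM or more in every P815-IFNG library and at most 1.65 in the P815-M libraries. The mast cell genes Kit and Gata2 had at least 317 and 361 CPM in every library. Of the other mast cell markers read, Cpa3, Srgn, Mitf and Mcpt8 had at least 675, 71.6, 18.9 and 1.61 CPM. Hdc, Tpsb2, Ms4a2 and Fcer1a were low, with at most 6.03, 5.27, 0.67 and 0.519 CPM.

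From tumor to tumor the levels of Ciita, H2-Aa, H2-Ab1, H2-Eb1, Cd74 and H2-DMb1 ran together, and that of H2-DMa did not. The lowest shallow value of all 6 was that of P815-M dark replicate 2, and the highest that of P815-IFNG light replicate 1 or P815-IFNG dark replicate 1. Between these extremes the 6 genes differed by 7.42-fold (Ciita) to 25.3-fold (H2-Aa), whereas H2-DMa differed by 1.83-fold.

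**Figure D1:**
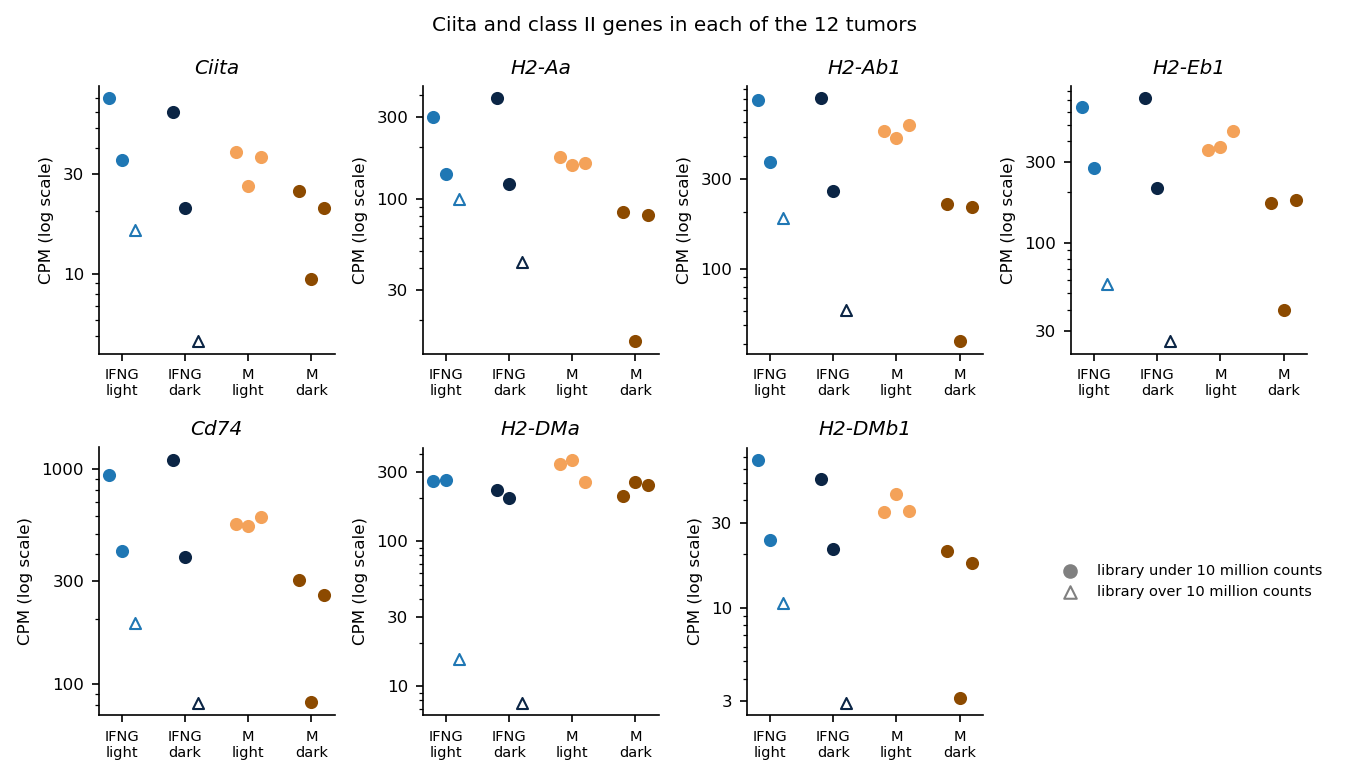
CPM (log scale) of the 7 genes in each of the 12 tumors, by group, with filled circles for the 10 shallow and open triangles for the 2 deep libraries. For 6 genes P815-M dark replicate 2 lies far under the other shallow libraries, and the 2 triangles of H2-DMa, at 15.4 and 7.70 CPM, lie far under its circles, which start at 199.7.

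Ciita lies on chromosome 16 from 10480059 to 10528418 (plus strand, GRCm38, GENCODE M21). Its level was 69.6 and 35.1 CPM in the shallow libraries of P815-IFNG light and 59.6 and 20.8 in those of P815-IFNG dark. In P815-M tumors it was 38.4, 26.3 and 36.2 CPM in the light group (33.7 ± 6.44, SD, n = 3) and 24.98, 9.38 and 20.6 in the dark group (18.3 ± 8.05, n = 3). The P815-M light libraries all lay above the P815-M dark libraries, and within P815-IFNG the shallow light and dark libraries overlapped. The deep libraries had 16.1 CPM in light and 4.73 in dark. The fitted log2 fold change of light over dark in P815-IFNG tumors was 0.87 with a standard error (SE) of 0.37, and in P815-M tumors 0.85 (SE 0.40). A gene was called where the quasi-likelihood test of edgeR gave an adjusted p (Benjamini-Hochberg, over all genes tested) of at most 0.05 and the log2 fold change was at least 1 in size, and Ciita was not called in either (adjusted p = 0.541 and 0.395). Between the lines it was 0.90 (0.41) in light and 0.88 (0.40) in dark, with adjusted p of 0.412 and 0.280 by edgeR.

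Exons of Ciita share 329 bases with those of Dexi, a gene of the other strand. Without strand, reads there cannot be assigned to one of them. Dexi had between 22.4 and 154 CPM in the shallow libraries, where its log2 CPM followed that of Ciita (r = 0.92, rho = 0.94 over 10 libraries), and 8.01 and 8.45 CPM in the deep ones. In P815-M tumors Dexi was called higher in light than in dark, by 1.43 on the log2 scale (SE 0.30, edgeR adjusted p = 0.0203). The call of Dexi was lost without P815-M light replicate 1 (1.22, edgeR adjusted p = 0.129), P815-M dark replicate 2 (1.16, 0.085) or P815-M dark replicate 3 (1.503, 0.0526).

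H2-Aa encodes the α chain of the class II molecule I-A and lies on chromosome 17 from 34282744 to 34287823 (minus strand). It had 298 and 140.0 CPM in the shallow P815-IFNG light libraries and 383 and 123 in the dark ones, with 100.1 and 43.3 in the deep pair. P815-M light tumors had 175, 158 and 163 CPM, and P815-M dark tumors 83.9, 15.1 and 80.7. Every shallow P815-IFNG library and every P815-M light library lay above all 3 P815-M dark libraries. Between the lines in the dark, H2-Aa was the 1 member called, 3.59-fold higher in P815-IFNG tumors (log2 fold change 1.84, SE 0.46, edgeR adjusted p = 0.0398).

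This call of H2-Aa rested on single libraries. The log2 fold change fell to 0.91 without P815-IFNG dark replicate 1 (edgeR adjusted p = 0.402) and to 1.40 without P815-M dark replicate 2 (0.11). The call was also lost, at nearly the same size or a larger one, without P815-M dark replicate 3 (2.105, 0.0613), P815-IFNG light replicate 1 (1.81, 0.0564), P815-M light replicate 1 (1.84, 0.0542) or P815-M light replicate 2 (1.85, 0.0604). DESeq2 gave 1.80 with an adjusted p of 0.112, and over all alternatives of the fit the adjusted p ranged from 1.05e-16 to 0.604 (edgeR or DESeq2), the first in an edgeR fit without a filter on low counts.

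H2-Ab1, the β chain of I-A, lies on chromosome 17 from 34257689 to 34269419 (plus strand). Its level was 794 and 369 CPM in shallow P815-IFNG light libraries, 807 and 259.03 in dark ones, 542, 497 and 578 in P815-M light and 219.8, 41.2 and 212 in P815-M dark. The order was thus close to that of its partner chain, with P815-IFNG dark replicate 1 at the top. In P815-M tumors the log2 fold change of light over dark was 1.76 (SE 0.46, edgeR adjusted p = 0.0668), short of the threshold on p and the largest among the members in this comparison.

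H2-Eb1 encodes the β chain of I-E, on chromosome 17 from 34305867 to 34316674 (plus strand). It had 639 and 277 CPM in shallow P815-IFNG light libraries and 722 and 210.4 in dark ones. P815-M tumors had 355, 369 and 458 CPM in light and 172, 39.6 and 180.2 in dark. The deep pair stood at 56.6 and 25.9 CPM, far under the shallow P815-IFNG libraries. The partner α chain of I-E, H2-Ea, was not analysed here.

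Cd74, on chromosome 18 from 60803848 to 60812652 (plus strand), encodes the invariant chain, which fills the peptide groove of new class II molecules and guides them to the endosomes. It was the highest of the 7 per length of exon, with a median of 284 CPM per kilobase over the shallow libraries, against 169 for H2-Ab1, 163 for H2-Eb1, 74.5 for H2-DMa, 39.2 for H2-Aa, 17.3 for H2-DMb1 and 3.22 for Ciita. The ranges of H2-Ab1 (16.0 to 314 CPM per kilobase) and H2-Eb1 (20.4 to 371) overlapped almost fully. In the deep libraries the median of H2-DMa was 3.35, under those of H2-Aa (18.9) and H2-DMb1 (4.04). Reads of DBA/2 tumors were mapped to the C57BL/6 reference, whose H2 haplotype differs, and its part in the order of the H2 genes was not tested. Across tumors, Cd74 had 938 and 413 CPM in shallow P815-IFNG light, 1101 and 391 in P815-IFNG dark, 551, 540 and 600 in P815-M light and 306, 82.3 and 258 in P815-M dark. P815-M light lay above P815-M dark without overlap, as for the class II chains.

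H2-DMa and H2-DMb1 encode the 2 chains of H2-DM, which exchanges the remnant of the invariant chain for other peptides. Their levels did not run together (r = 0.20 between their log2 CPM over the 10 shallow libraries). H2-DMb1, on chromosome 17 from 34153072 to 34160230 (plus strand), had 67.6 and 23.9 CPM in shallow P815-IFNG light, 52.8 and 21.4 in P815-IFNG dark, 34.3, 43.6 and 34.9 in P815-M light and 20.7, 3.13 and 17.7 in P815-M dark. The lowest of these rests on 6 counts. Of its 50-base words, 22.7% also occur in H2-DMb2, a near copy beside it, so its counts are uncertain where reads fell on shared sequence.

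H2-DMa, on chromosome 17 from 34119541 to 34139101 (plus strand), had 258.6 and 263 CPM in shallow P815-IFNG light libraries, 227 and 199.7 in dark ones, 338, 365 and 257 in P815-M light and 206, 257 and 243 in P815-M dark. The P815-M groups touched, since 1 dark library lay above the lowest light library. In the deep libraries it had 15.4 and 7.70 CPM. Its exons share 360 bases with those of Brd2, a widely expressed gene of the other strand. H2-DMa had between 1.31 and 2.57 counts for each count of Brd2 in the shallow libraries and between 0.0288 and 0.0642 in the deep ones, while Brd2 itself had 124 to 173 CPM and 240.3 and 268 CPM. The log2 CPM of H2-DMa and Brd2 did not run together over the 10 shallow libraries (r = -0.36, rho = -0.44). Without strand, reads in these 360 bases, 10.4% of the exon bases of H2-DMa, cannot be assigned to 1 of the genes. H2-DMa is therefore given as uncertain.

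Blue light in P815-IFNG tumors, which carry the light-controlled Ifng module, was compared with the dark first. All 7 genes had a higher fitted level in light, by log2 fold changes between 0.27 (H2-Aa) and 0.87 (Ciita), with a median of 0.52 against -0.03 over all genes tested. Both edgeR and DESeq2 called 0 members, while edgeR called 0.0106% of all genes, and 2 members (Ciita and H2-DMa) and 8.34% of all genes had an unadjusted p under 0.05. The shallow libraries did not overlap for 1 member, H2-DMa (18.2% of all genes were higher in light without overlap). Within the 10 shallow libraries alone the log2 fold change turned to -0.21 for H2-Aa, -0.14 for Cd74 and -0.02 for H2-Eb1. Between the 2 deep libraries, which allow no test, light was 2.00-fold (H2-DMa) to 3.65-fold (H2-DMb1) higher, with 3.41-fold for Ciita and 2.31-fold for H2-Aa.

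P815-IFNG dark replicate 1 moved these values most. Without it the median log2 fold change of the 7 genes was 1.12, and Ciita, at 1.54, was the 1 member called (edgeR adjusted p = 0.0494). Without the deep dark library the median was 0.12. Acta1, a skeletal muscle gene, had 129 CPM in P815-IFNG dark replicate 1 against 15.1 and 17.5 in the other dark replicates and at most 0.488 in the light ones, and the part of muscle RNA in the class II values was not tested. The Ifng gene was at 14.9 and 1.95 CPM in shallow P815-IFNG light and 1.76 in the deep light library. In P815-IFNG dark the Ifng gene was at 1.86 and 1.01 CPM, with 0.670 in the deep library. It was highest in the tumor that was also highest for Ciita. The light-controlled module has a row of its own, the knock-in sequence mINFg_mCXCL10_hGulc. The module also encodes Ifng, and the assignment of reads from coding sequence shared by both rows was not tested. Both rows are therefore uncertain. The knock-in row had 4.42 and 2.93 CPM in shallow P815-IFNG light and 5.28 in the deep light library. In P815-IFNG dark it had 2.79 and 2.01 CPM, with 2.81 in the deep library. Its highest value was that of the deep light library, not of the tumor highest for Ciita.

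In P815-M tumors, which have no light-controlled module, the fitted difference between light and dark was above that of P815-IFNG tumors for 5 genes and slightly below it for Ciita and H2-DMa. All 7 genes had a higher fitted level in light, with a median log2 fold change of 1.40 against 0.01 over all genes. After H2-Ab1 at 1.76 came H2-Eb1 at 1.58 (SE 0.45), H2-Aa at 1.44 (0.45), H2-DMb1 at 1.40 (0.48) and Cd74 at 1.38 (0.41), then Ciita, and H2-DMa was lowest at 0.44 (0.18). Of the 7, edgeR called 0, with adjusted p between 0.0668 and 0.395, and DESeq2 called 0, while edgeR called 1.03% of all genes. All 7 had an unadjusted p under 0.05, as had 12.5% of all genes. In 6 of the 7, all but H2-DMa, every light library lay above every dark library, which 10.1% of all genes also showed.

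**Figure D2:**
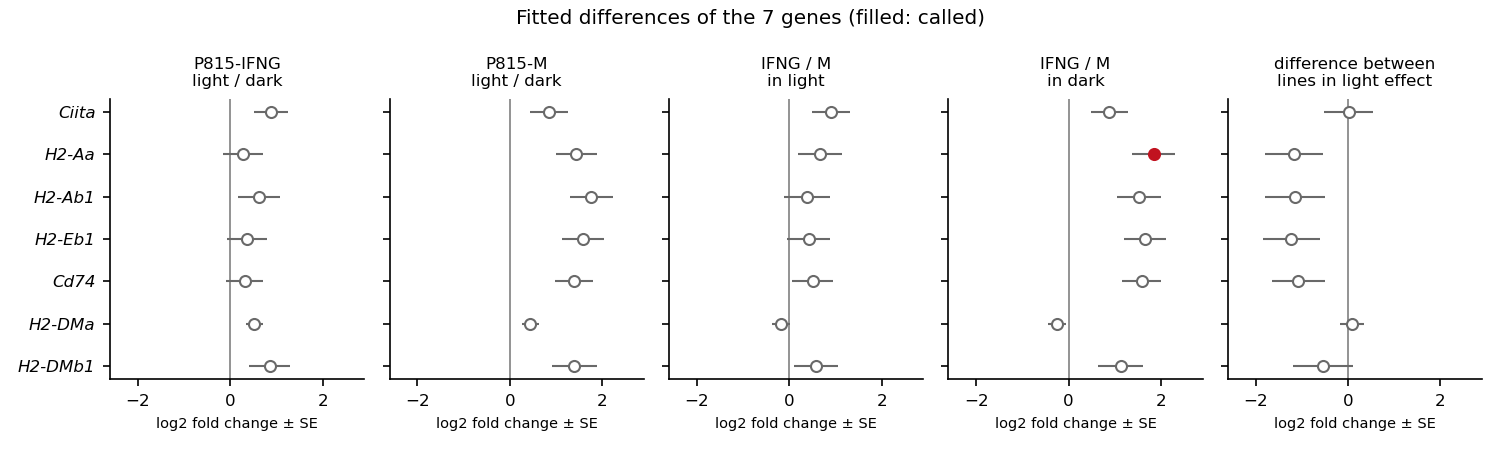
Fitted log2 fold changes and SE (bars) of the 7 genes in the 4 comparisons and in the difference between the lines in the light effect, from edgeR over 12 libraries. The 1 filled point is H2-Aa in P815-IFNG against P815-M tumors in the dark, at 1.84, and H2-DMa is the 1 gene under 0 in both comparisons of the lines (-0.17 and -0.25).

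Here P815-M dark replicate 2 weighed most. Without it the median log2 fold change in P815-M tumors was 1.00 and H2-Ab1 stood at 1.32, and no direction changed. That library was the lowest of the 10 shallow libraries for macrophage and monocyte markers as well, at 767 CPM summed over 12 genes, and had the highest Acta1 level, 199 CPM. The number of members called was 4 after ComBat-seq (of 235 genes called), 3 with the P815-M libraries alone in the fit (of 244), 5 with the replicate number as a block (of 282) and 5 without a filter on low counts (of 429), against 0 of 194, and with 1 library left out it ran from 0 to 4 (without P815-IFNG dark replicate 1).

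Between the lines in the light, none of the 7 genes was called. The log2 fold change of P815-IFNG over P815-M was positive for 6 genes, from 0.38 (H2-Ab1) to 0.90 (Ciita), and -0.17 for H2-DMa, with a median of 0.51. Without the term for library kind, H2-Ab1, H2-Eb1, Cd74 and H2-DMb1 turned negative and the median was -0.15, and leaving out P815-IFNG light replicate 1 or 2 gave medians of 0.26 and 1.01. Calls of members numbered 0 with edgeR, which called 0.436% of all genes, and 0 with DESeq2, which called 114 genes. By edgeR, 1 member (Ciita) and 11.1% of all genes had an unadjusted p under 0.05. The shallow libraries of the 2 lines overlapped for all 7 genes, since P815-IFNG light replicate 1 lay above and replicate 2 within or below the P815-M libraries for 6 of them. Of all genes, 12.9% were higher in P815-IFNG light without overlap.

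In the dark, fitted levels of 6 of the 7 were higher in P815-IFNG tumors, with a median log2 fold change of 1.52 against 0.06 over all genes. Beside H2-Aa, the 1 member called (1.54% of all genes were called), the values were 1.65 (SE 0.46, edgeR adjusted p = 0.0621) for H2-Eb1 and 1.58 (SE 0.42, 0.0508) for Cd74. They were 1.52 (SE 0.47, 0.0933) for H2-Ab1 and 1.13 (SE 0.49, 0.247) for H2-DMb1, and 6 of the 7 and 16.3% of all genes had an unadjusted p under 0.05. H2-DMa was at -0.25 (SE 0.19). In 5 of the 7, all but Ciita and H2-DMa, both shallow P815-IFNG dark libraries lay above all 3 P815-M dark libraries, as did 18.6% of all genes. The P815-M dark libraries are shared with the comparison of light and dark in P815-M tumors, so the values of the 2 comparisons are not independent. Without P815-IFNG dark replicate 1 the median was 0.58 and the value of Ciita 0.02. Of the 290 genes called here, 1 was a member. The number of members called was 0 under DESeq2 (of 408 genes called), with its size factors (of 252) and with filterByExpr (of 246). It was also 0 with only the libraries compared (of 266) and without the term for library kind (of 2). It was 2 in the shallow libraries alone (of 371 genes called) and 4 with the replicate number as a block (of 367). ComBat-seq gave 4 (of 489), and a fit without a filter gave 5 (of 640).

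**Figure D3:**
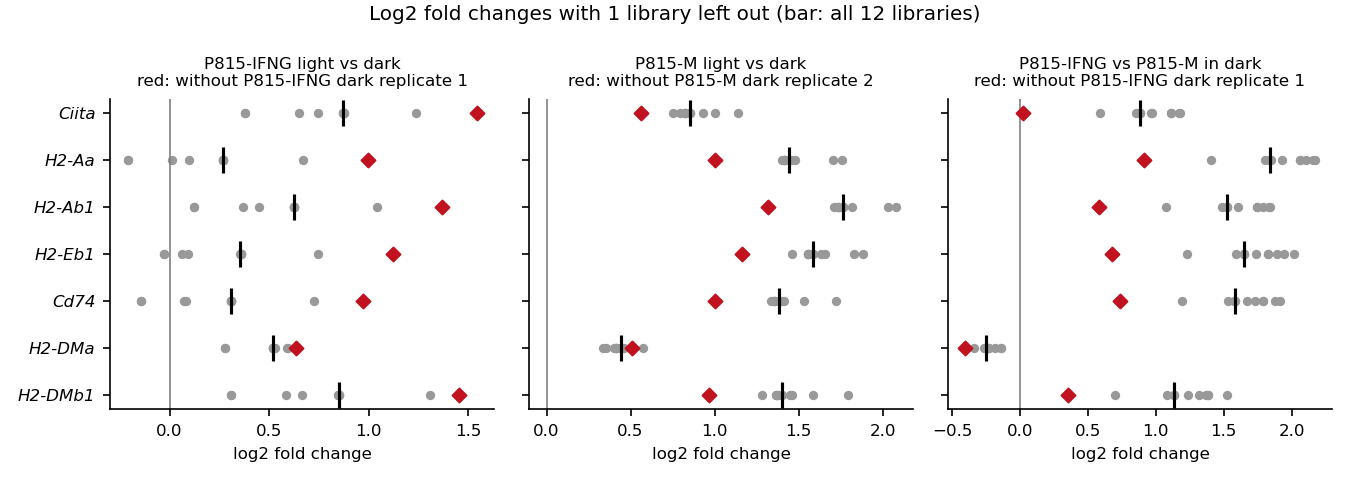
Log2 fold changes of the 7 genes with each of the 12 libraries left out in turn (points), beside the value over all libraries (bar), in 3 comparisons. Red diamonds leave out P815-IFNG dark replicate 1 (left and right) or P815-M dark replicate 2 (middle), and H2-Aa moves from 1.84 to 0.91 in the right panel.

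The difference between the lines in the light effect was negative for 5 genes, from -1.23 (H2-Eb1, SE 0.62) to -0.55 (H2-DMb1, 0.65), and near 0 for Ciita (0.02, 0.53) and H2-DMa (0.08, 0.26). Neither edgeR, which called 0.016% of all genes, nor DESeq2 called a member, and 0 members and 5.73% of all genes had an unadjusted p under 0.05. The smallest adjusted p of a member was 0.863 (H2-Eb1, edgeR's quasi-likelihood test). A difference between the lines in the light effect was therefore not shown. Without P815-IFNG dark replicate 1 the median over the 7 genes went from -1.07 to -0.37 and H2-Eb1 to -0.43, and H2-DMb1 turned to 0.086. Its sign for Ciita turned in the shallow libraries alone (-0.45) and without the term for library kind (-0.36).

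Set beside Ciita, 5 of the 6 other genes followed it closely. Over the 10 shallow libraries Pearson's r between log2 CPM of Ciita and of the gene was 0.95 for Cd74 and H2-Eb1, 0.94 for H2-Aa and H2-Ab1 and 0.92 for H2-DMb1, and 0.10 for H2-DMa. Spearman's rho was between 0.89 and 0.96 for the 5 and 0.30 for H2-DMa. Values taken as deviations from the group means gave r between 0.88 and 0.96 for the 5 and -0.20 for H2-DMa. Each P815-IFNG group has 2 shallow libraries, whose deviations mirror each other, so this r cannot show the relation in every group. In P815-M light, Ciita had 38.4, 26.3 and 36.2 CPM where H2-DMb1 had 34.3, 43.6 and 34.9, in the opposite order. Without the 2 libraries farthest from the median of Ciita (P815-IFNG light replicate 1 and P815-M dark replicate 2), r was between 0.77 and 0.89 for the 5. These correlations describe libraries that share their scaling and groups, and no test was made of them.

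**Figure D4:**
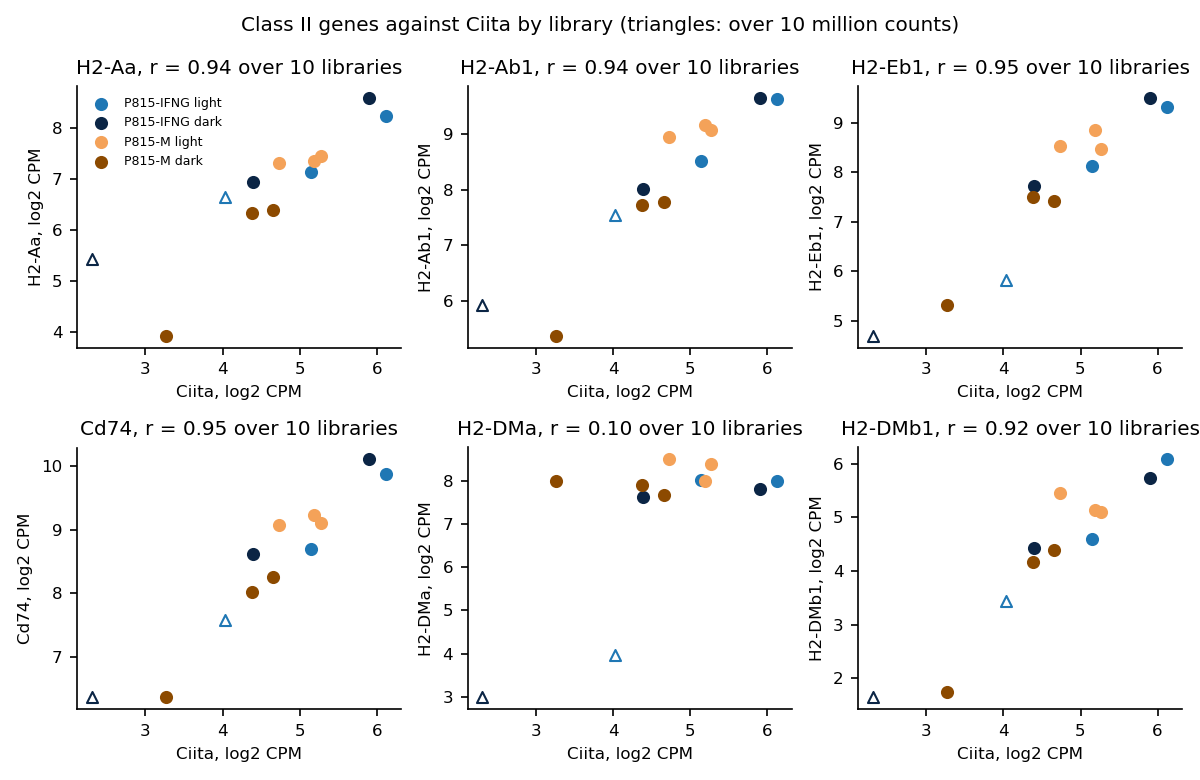
Log2 CPM of each of the 6 genes (vertical) against that of Ciita (horizontal) in the 12 tumors, with triangles for the 2 deep libraries. The 10 circles run along a line for 5 genes (r from 0.92 to 0.95) and lie flat for H2-DMa (r = 0.10).

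Per count of Ciita, the shallow libraries held 8.78 to 20.5 counts of Cd74, 4.39 to 18.9 of H2-Ab1, 4.22 to 14.0 of H2-Eb1, 1.61 to 6.43 of H2-Aa and 0.333 to 1.65 of H2-DMb1. The lowest shallow ratio of each of these 5 genes was that of P815-M dark replicate 2. The deep pair held 11.9 and 17.3 counts of Cd74 per count of Ciita, inside the shallow range, and 3.51 and 5.47 of H2-Eb1, on both sides of its lower end. H2-DMa had 3.72 to 27.4 counts per count of Ciita in the shallow libraries, the highest in P815-M dark replicate 2, and 0.956 and 1.63 in the deep ones.

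All 7 genes had lower CPM in the deep than in the shallow libraries once the groups were fitted. The fitted log2 difference was -1.78 for H2-Aa, -2.33 for H2-Ab1, -2.34 for Ciita, -2.45 for Cd74, -2.81 for H2-DMb1, -3.55 for H2-Eb1 and -4.42 for H2-DMa. The median over all genes was 0.07, and the middle 90% of genes lay between -5.06 and 2.54. The 2 kinds of library also differ in depth and in the mt-Nd6 share given above. Mast cell markers summed to 10928 and 8198 CPM in the deep light and dark libraries, against 1509 to 2492 in the shallow ones, and macrophage markers to 763 and 523 against 767 to 1766. Most of the mast cell sum lay in Cpa3, with 7570 and 5469 CPM in the deep libraries, against at most 1100 in the shallow ones. Srgn had 1908 and 1221 CPM against at most 199. Kit had 666 and 616 against 317 to 585, and Hdc 2.50 and 1.47 against 0 to 6.03. The part of these differences in the lower class II values was not tested. The 2 kinds of library are present together only in the P815-IFNG groups.

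**Figure D5:**
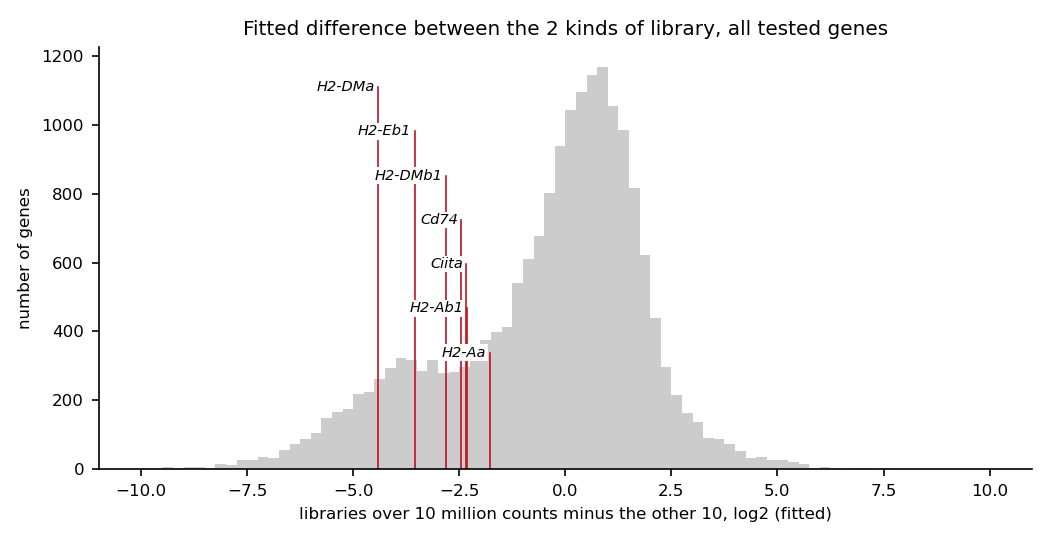
Number of genes (vertical) by fitted log2 difference of the 2 deep from the 10 shallow libraries (horizontal), with a red line for each of the 7 genes. The 7 genes lie between -4.42 (H2-DMa) and -1.78 (H2-Aa), on the lower shoulder of the distribution.

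Other genes of the class II pathway were read from fixed lists. Of the 4 further class II chains tested (H2-Eb2, H2-DMb2, H2-Oa and H2-Ob), edgeR called 0 in any comparison, and at most 2 had an unadjusted p under 0.05. H2-DMb2, the near copy of H2-DMb1, was highest of them, with 8.30 to 25.3 CPM in shallow P815-IFNG tumors, 9.58 to 15.2 in P815-M light and 1.23 to 9.76 in P815-M dark, and its log2 fold change was 1.35 between light and dark in P815-M and 1.44 between the lines in the dark. H2-Oa and H2-Ob, the chains of H2-DO, an inhibitor of H2-DM, stayed at or under 2.34 and 4.03 CPM in every library. Of the 7 factors that bind the X and Y boxes, edgeR called 0 in any comparison, with at most 1 at an unadjusted p under 0.05, and the median log2 fold change was -0.03 for light in P815-IFNG, -0.06 for light in P815-M, 0.07 between the lines in light and -0.09 in dark. Rfx5, a subunit of RFX, had 40.6 to 80.8 CPM in the shallow libraries and 46.7 and 50.2 in the deep ones.

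Among the 10 genes that lead from the IFNG receptor to Ciita, 1 was called. Ifngr1, a chain of the receptor, was higher in P815-IFNG than in P815-M tumors in the dark by 1.23 on the log2 scale (SE 0.24, edgeR adjusted p = 0.00883), a call lost without P815-IFNG dark replicate 1 (1.08, edgeR adjusted p = 0.0513). It had 54.3 and 43.6 CPM in shallow P815-IFNG dark, 97.9 in the deep dark library, and 23.4, 15.1 and 21.4 in P815-M dark. Irf1, which acts on the Ciita promoter, had a log2 fold change of light over dark of 1.39 (SE 0.32, edgeR adjusted p = 0.158) for P815-IFNG and of 0.97 (SE 0.34, 0.216) for P815-M. Like Ciita, Irf1 was highest in P815-IFNG light replicate 1 (230.1 CPM) and, of the shallow libraries, lowest in P815-M dark replicate 2 (20.3 CPM).

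Of the 8 genes of peptide loading and turnover, Ctss was called. It encodes cathepsin S, which cuts the invariant chain. Its level was 475, 442 and 713 CPM in P815-M light and 255, 72.9 and 177 in P815-M dark, without overlap, a rise of 1.69 on the log2 scale (SE 0.40, edgeR adjusted p = 0.0422). With 1 library left out, the call of Ctss was lost in 6 of 12 cases, without any of the P815-M light replicates, P815-M dark replicate 2 or 3, or P815-IFNG light replicate 1, and the log2 fold change then lay between 1.33 and 1.82. It was also lost in 4 of 11 other fits, under DESeq2, with filterByExpr, in the shallow libraries alone and without the term for library kind, the last with an edgeR adjusted p of 1. Between the lines in the dark it was 1.37 (SE 0.41). Over the 8 genes the median was 0.84 on the log2 scale for light in P815-M and 0.90 between the lines in the dark. Ifi30, a thiol reductase of the endosome, had log2 fold changes of -0.40 and -0.01 for light in P815-IFNG and P815-M. Of 5 genes for ligands and costimulation, edgeR called 0, with at most 1 at an unadjusted p under 0.05, and Cd4, the coreceptor for class II, had between 1 and 19 counts in the shallow libraries.

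The 10 genes whose log2 CPM was most like the mean of the 6 genes other than Ciita over the shallow libraries, out of 10627 genes ranked, were Mpeg1, Tcirg1, Smpdl3a, Pld4, Psap, Evl, Cybb, H2-Q7, Ctss and Cd300a, with Pearson's r from 0.98 for Mpeg1 to 0.96 for Cd300a. Mpeg1 and Cybb are known from macrophages, and Psap encodes the precursor of the saposins of the lysosome. Their highest library held 4.88-fold (Pld4) to 28.04-fold (Mpeg1) the CPM of their lowest. Ciita reached 0.94 on this measure and H2-DMa, itself 1 of the 6 genes averaged, 0.21. These values rest on libraries that share their groups and scaling.

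Markers of cells that carry class II were read beside these levels. The summed level of 12 macrophage and monocyte markers was 1141 to 1425 CPM in shallow P815-IFNG light, 1530 to 1766 in P815-IFNG dark, 1273 to 1357 in P815-M light and 767 to 981 in P815-M dark, with 0 of the 12 at a count of 0 in any of these libraries. It followed the class II mean at r = 0.77 (rho = 0.75, 10 libraries). Of the 12 markers, all were higher in light in P815-M tumors (median log2 fold change 0.83) and 1 was called, C1qa, a complement gene of macrophages, with 180, 233 and 232 CPM in light and 131, 57.3 and 109 in dark. The difference of C1qa was 1.11 on the log2 scale (SE 0.25, edgeR adjusted p = 0.0290), and the call was lost without any of the P815-M light replicates or without P815-M dark replicate 2 or 3, with values from 0.84 to 1.22, and with filterByExpr (1.12, edgeR adjusted p = 0.0564). Without the term for library kind the calls of C1qa, Ifngr1 and Dexi were lost as well. In the dark, where the median was 0.94, 4 of the 12 were called higher in P815-IFNG than in P815-M tumors, the complement genes C1qa (by 1.44 on the log2 scale), C1qb (1.38) and C1qc (1.17) among them. Csf1r and Adgre1, defining genes of macrophages, had differences of at most 0.29 in size on the log2 scale in these 4 comparisons. The part of macrophage number in the class II values was not tested. Within P815-IFNG dark, replicate 1 had a summed macrophage level of 1530 CPM and a sum of the 7 genes of 3353, and replicate 2 had 1766 and 1225.

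Dendritic cell markers (10 genes) summed to 36.1 to 55.9 CPM in shallow P815-IFNG light, 93.7 to 101 in P815-IFNG dark, 65.9 to 111 in P815-M light and 39.1 to 115 in P815-M dark, and edgeR called 0 in any comparison, with at most 1 at an unadjusted p under 0.05. Itgax had 2.47 to 48.7 CPM in the shallow libraries, Zbtb46 2.60 to 7.66 and Flt3 0 to 5.21. B cell markers (8 genes) summed to 3.29 to 9.72 CPM in the shallow libraries, where Ms4a1, which defines B cells, had at most 4 counts and Cd79a 4 to 19. T cell markers (8 genes) summed to 4.39 to 28.2 CPM. Mast cell markers (10 genes) summed to 1509 to 1818 CPM in shallow P815-IFNG and 1660 to 2492 in P815-M tumors, highest in P815-M dark, where the class II genes were lowest. Of B cell, T cell and mast cell markers edgeR called 0 in any comparison, with at most 1, 2 and 4 at an unadjusted p under 0.05. Of 6 fibroblast markers, 2 (Dcn and Lum) were called higher in P815-IFNG than in P815-M tumors in the dark, and their summed level was 12406 CPM in P815-IFNG dark replicate 2 and between 4481 and 6154 in the other shallow libraries. Of 6 skeletal muscle markers, the myosin gene Myh4 was called lower in light in P815-IFNG tumors and higher in P815-IFNG than in P815-M tumors in the dark. Between the lines in light, 1 of the 6 was called lower in P815-IFNG tumors, and 1 was called lower in the difference between the lines. The muscle sum was highest in P815-M dark replicate 2 (617 CPM), P815-IFNG dark replicate 1 (522) and P815-M light replicate 3 (440.1), with sums of the 7 class II genes of 448, 3353 and 2127 CPM. The part of either tissue in the class II values was not tested.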

How the data were processed

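RNA of 12 tumors was sequenced as stranded mRNA libraries. The authors trimmed reads with fastp, aligned them with STAR 2.7.9a to the mm10 genome with the knock-in sequences added, counted them per gene with HTSeq 0.13.5 at default parameters, and deposited 1 table of raw read counts per tumor; the notes also name DESeq2 1.32.0. The groups came from the sample titles, 3 mice each.

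From the counts, 13 mitochondrial rows and genes with a total under 10 were removed, and 18804 genes were tested with edgeR 4.0.16 (quasi-likelihood F test, TMM, R 4.3.3) over all 12 libraries, with 1 mean per group and a term for library kind (total above 1e+07), leaving 7 residual degrees of freedom. Calls needed a Benjamini-Hochberg adjusted p up to 0.05 and a log2 fold change of at least 1 in size. SE is the log2 fold change divided by the square root of F. Log2 CPM used a prior count of 2. Alternatives were DESeq2 1.42.0, its size factors, other filters, ComBat-seq (sva 3.50.0), other sets of libraries, a replicate block and each library left out. The code was tested on simulated data.

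Named were the 7 genes, called or preset genes of the pathway lists, the 10 genes (mean count at least 20) most like the class II mean, and marker genes, some of which are not reported here; Dexi, Brd2, Acta1, C1qb, C1qc, Dcn, Lum and Myh4 were added after their values were seen. Members and lists were chosen with earlier results of these data known. Replicates are separate mice. Counts of 3 served as the floor, and floors cover counting error only. Exons came from GENCODE M21 (GRCm38) and promoters from RefSeq (GRCm38.p6); DNA shared with a near copy was counted in words of 50 bases.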

Additional observations from a re-analysis of the deposited data

How the results depend on the processing

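With 7 residual degrees of freedom, single libraries and the handling of the 2 deep libraries limited these results, and in P815-M dark replicate 2 H2-DMb1 rests on 6 counts. Across all alternatives the members' log2 fold changes kept their direction in P815-M light against dark and in the dark between the lines, and turned in 11 of 161 values for P815-IFNG light against dark, 4 of 161 between the lines in light and 16 of 154 for the difference between the lines. The cause was not tested, apart from the fit without a filter, where the prior degrees of freedom became infinite and all genes shared 1 trended spread.

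For P815-IFNG light against dark, 2 genes were called, against 58 with DESeq2, 1 with filterByExpr, 211 with no filter, 0 with no term for library kind, 1 in the shallow libraries, 122 with ComBat-seq and 62 with the replicate block. For P815-M light against dark, 194 were called, against 293 with DESeq2, 429 with no filter and 0 with no term for library kind, and 0 members, against 5 with no filter, 4 with ComBat-seq, 3 with only the libraries compared and 5 with the replicate block. Between the lines in light, 82 were called, against 245 with no filter, 3 with no term for library kind, 39 in the shallow libraries, 243 with ComBat-seq and 140 with only the libraries compared. In the dark, 290 were called, against 640 with no filter, 2 with no term for library kind, 489 with ComBat-seq and 441 with no minimum fold change. The 1 member called in the dark compares with 0 under DESeq2 (of 408 genes called), with its size factors (252) or with filterByExpr (246). The number of members was also 0 with no term for library kind or with only the libraries compared (266 genes called). It was 5 with no filter, 2 in the shallow libraries, 4 with ComBat-seq and 4 with the replicate block. For the difference between the lines, 3 genes were called, against 23 with DESeq2, 1 with its size factors, 1 with filterByExpr, 203 (4 members) with no filter, 0 with no term for library kind, 27 with ComBat-seq and 16 with the replicate block.

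With no term for library kind, P815-IFNG light against dark turned to -0.030 for H2-Aa and -0.029 for Cd74. The comparison of the lines in light turned to -0.26 for H2-Ab1, -0.28 for H2-Eb1, -0.13 for Cd74, -0.15 for H2-DMb1 and -0.15 for the median, and the difference between the lines to -0.36 for Ciita and -0.14 for H2-DMa. In the shallow libraries, P815-IFNG light against dark turned to -0.21 for H2-Aa, -0.022 for H2-Eb1 and -0.14 for Cd74, and the difference between the lines to -0.45 for Ciita and -0.14 for H2-DMa.

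With 1 library left out, between 1 and 52 genes and 0 and 1 members were called for P815-IFNG light against dark, 61 and 237 genes and 0 and 4 members for P815-M, 29 and 161 genes and 0 members between the lines in light, 153 and 444 genes and 0 and 4 members in the dark, and 1 and 14 genes and 0 members for the difference. Medians of the members then ranged from 0.12 to 1.12, from 1.00 to 1.76, from 0.26 to 1.01, from 0.58 to 1.84 and from -1.50 to -0.37. In P815-IFNG light against dark, H2-Aa ranged from -0.21 to 1.00, H2-Eb1 from -0.028 to 1.12 and Cd74 from -0.15 to 0.97, and in the difference between the lines Ciita ranged from -0.44 to 0.72, H2-DMa from -0.13 to 0.22 and H2-DMb1 from -1.06 to 0.086.

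The titles number the replicates, and no label ties mice of different groups. Deviations of same-numbered libraries correlated between -0.23 and 0.26, apart from -1 for the deep pair, which follows from the term for library kind. Replicate 3 is the deep library in both P815-IFNG groups, so the check cannot decide whether the numbers there stand for more than a name. With the replicate block the difference between the lines turned to -0.016 for Ciita.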
